A study of Homo sapiens with 36 samples.

Results

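The miR-30 family was followed through 10 mature miRNAs, which were every entry of the count table named for the 5p or 3p arm of miR-30a, miR-30c, miR-30d or miR-30e and for the 5p arm of miR-30b, out of 1508 miRNAs listed. The members were picked by name and not by a cut on any measured value, although earlier results of these data were known. They were counted in 36 small RNA libraries of WI-38, a normal fibroblast strain from human lung, in 18 conditions with 2 biological replicates each. The control (Ctrl) cells were proliferating and untreated. PMD-Sen cells, a model of senescence that follows plasma membrane damage, were treated for 1 day with SDS, a detergent. DDR-Sen cells, a model of senescence that follows the DNA damage response, were treated for 1 day with doxorubicin (DXR), a DNA-damaging drug. Both series were sampled when the agent was removed (D0), on each of the next 4 days (D1 to D4) and at D6, D8 and then D16. The cells of replicative senescence (RS) came from serial passage to a high population doubling level. All libraries came from 1 cell strain.

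A miRNA is cut from a hairpin precursor, and either strand of the stem, the 5p or the 3p arm, can be loaded into an Argonaute protein and guide it to mRNAs. Target choice rests mainly on the seed near the 5′ end of the loaded arm, so miRNAs with the same seed can act on overlapping sets of mRNAs. In most tissues the 5p arms of the miR-30 family are the abundant ones. miR-30 has been studied as a brake on profibrotic genes such as connective tissue growth factor, and, together with miR-29, as a repressor of the cell cycle factor B-Myb in senescent cells.

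The mature sequences below show which members carry the same seed and how close the arms of different hairpins are to each other. They were taken from RefSeq (GRCh38.p14), written 5′ to 3′, with the seed, bases 2 to 8, in capitals.
hsa-miR-30a-5p: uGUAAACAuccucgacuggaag
hsa-miR-30c-5p: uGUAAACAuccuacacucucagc
hsa-miR-30e-5p: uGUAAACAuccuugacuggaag
hsa-miR-30a-3p: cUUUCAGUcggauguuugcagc
hsa-miR-30e-3p: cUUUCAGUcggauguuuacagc
hsa-miR-30c-1-3p: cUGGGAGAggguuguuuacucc
hsa-miR-30c-2-3p: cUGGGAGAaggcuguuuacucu

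These were 7 of the 10 members, and hsa-miR-30b-5p, hsa-miR-30d-5p and hsa-miR-30d-3p are given by name. The prefix hsa, for human, is left out below. The 5p arms shared the seed GUAAACA. The 3p arms fell into a group with UUUCAGU (miR-30a-3p and miR-30e-3p) and a group with UGGGAGA (miR-30c-1-3p and miR-30c-2-3p). Counted from 1 at the 5′ end, miR-30a-5p and miR-30e-5p differed only by C13U, and miR-30a-3p and miR-30e-3p only by G18A. miR-30a-5p and miR-30c-5p differed at 5 bases, 0 of them in the seed, whereas miR-30a-3p and miR-30c-2-3p differed at 10 bases, 4 of them in the seed. Reads of such close arms can be split between them: miR-30a-3p and miR-30e-3p had values that were not whole numbers in the same 14 libraries, and 52 of the 360 values of the members were not whole. The separate levels of miR-30a and miR-30e therefore rest on how the authors assigned reads that match both.

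The hairpins lie in 3 clusters (GRCh38, GENCODE 44). MIR30A (chr6:71403551-71403621, minus strand) and MIR30C2 (chr6:71376960-71377031, minus strand) lie 26519 bases apart in LINC00472, a long noncoding RNA gene. MIR30A is intronic in all 11 LINC00472 transcripts that span it, and MIR30C2 overlaps an exon in 1 of 9. MIR30E (chr1:40754355-40754446, plus strand) and MIR30C1 (chr1:40757284-40757372, plus strand) lie 2837 bases apart in introns of NFYC, which encodes a subunit of the transcription factor NF-Y. MIR30B and MIR30D lie 4268 bases apart on chromosome 8, in introns of a long noncoding RNA gene. miR-30c-5p is identical from MIR30C1 and MIR30C2, so its count cannot be divided between the chromosome 1 and chromosome 6 clusters, whereas miR-30c-1-3p and miR-30c-2-3p each mark one of them.

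Library totals ranged from 81668 to 1933435 counts, with a median of 376989. They were lowest at PMD-Sen D0 (104439 and 81668) and highest in PMD-Sen D16 replicate 1 (1933435), so depth rose with day in the PMD-Sen series. Levels are given as CPM, counts scaled to a common library size. The marker miRNAs matched the labelled fibroblasts: the 6 fibroblast and mesenchymal markers summed to 51879 to 131645 CPM, most of it miR-21-5p, and the 6 epithelial markers to 14.6 to 163 CPM, with miR-200a-3p, miR-141-3p, miR-429 and miR-205-5p at 0 counts in 31 to 34 libraries. At D16, 2 of the fibroblast markers were lower than Ctrl in DDR-Sen, miR-143-3p (−1.02 on the log2 scale) and miR-145-5p (−1.05), and 0 in PMD-Sen. In RS, 2 were lower, miR-145-5p (−1.20) and miR-199a-3p (−0.83). Of all miRNAs, 11.7% were called lower (adjusted p below 0.05) at DDR-Sen D16, 7.78% at PMD-Sen D16 and 12.2% in RS. With day, 5 of the 6 markers fell in DDR-Sen, beside 14.7% of all miRNAs, and 1 of the 6, miR-214-3p, fell in PMD-Sen, beside 20.3%. The 6 blood cell markers summed to 194 to 206 CPM in Ctrl, 145 to 508 CPM in PMD-Sen, 282 to 1106 CPM in DDR-Sen and 497 to 1046 CPM in RS. Nearly all of that sum was miR-486-5p (134 to 1106 CPM), whereas miR-451a was at 0 in 19 libraries, miR-223-3p in 32 and miR-142-5p in 34, and miR-144-3p and miR-142-3p were not listed. The 3 muscle markers summed to 0 to 41.8 CPM. The part of these levels in the results for miR-30 was not tested.

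CPM below were scaled by TMM, edgeR's correction for library composition. Between miRNAs they compare reads only, since cloning and sequencing can favour some sequences over others. The members spanned a wide range. miR-30a-5p (8039 to 28040 CPM, median 20377) and miR-30d-5p (15636 to 29011 CPM, median 20401) were the abundant members. miR-30c-5p had 806 to 3814 CPM, miR-30e-5p 450 to 2295 CPM and miR-30a-3p 266 to 823 CPM. miR-30b-5p (25.2 to 178 CPM), miR-30e-3p (25.2 to 199 CPM) and miR-30c-2-3p (36.7 to 176 CPM) were the rare members that were tested. The remaining 2 members, miR-30c-1-3p (0 to 10 counts, 60 in all) and miR-30d-3p (0 to 2 counts, 9 in all), were at 0 counts in 13 and 29 libraries and did not pass the filter on low counts, so 8 of the 10 members were tested among 360 miRNAs. A count of 0 allows up to 3 counts, and no fold is given for these 2.

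**Figure D1:**
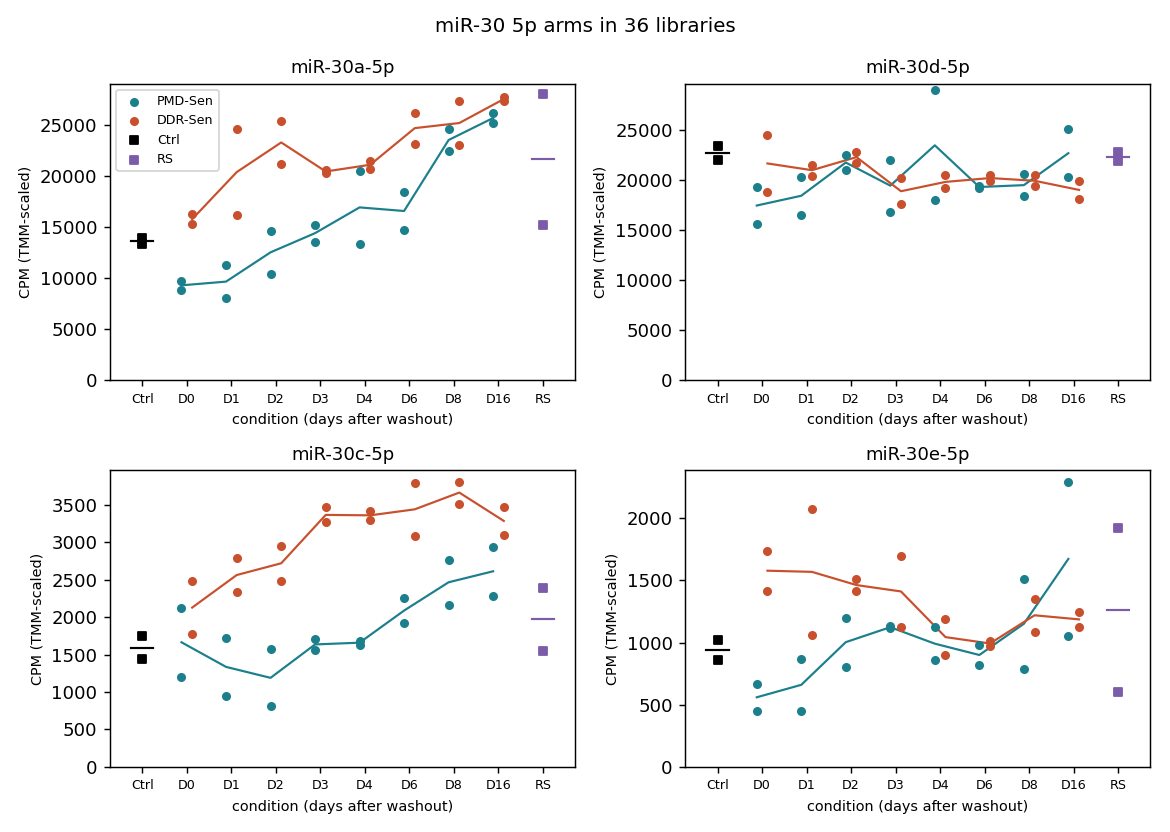
The vertical axis is the TMM-scaled CPM of miR-30a-5p, miR-30d-5p, miR-30c-5p and miR-30e-5p, and the horizontal axis is the condition, with each library as a point and lines or bars at the mean of 2. miR-30a-5p climbed from 8800 and 9738 CPM at PMD-Sen D0 to 26193 and 25151 CPM at D16, whereas miR-30d-5p had no time point whose libraries were both above the Ctrl libraries.

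The question asked of each time point was whether a member differed from proliferating cells. miR-30a-5p was called higher than Ctrl late in both series, at 2 PMD-Sen and 3 DDR-Sen time points. It had 13322 and 13920 CPM in Ctrl. In PMD-Sen it had 8800 and 9738 CPM at D0, 11228 and 8039 CPM at D1, 14629 and 10375 CPM at D2 and 13547 and 15222 CPM at D3. It then had 13337 and 20480 CPM at D4, 18454 and 14657 CPM at D6, 24567 and 22458 CPM at D8 and 26193 and 25151 CPM at D16. All libraries of D0 and D1 were thus below both Ctrl libraries, and those of D2 lay on either side of them. Those of D3 and D4 lay between or above the Ctrl libraries, and those of D6 to D16 were above both. In DDR-Sen it had 15255 and 16258 CPM at D0, 24555 and 16179 CPM at D1, 25420 and 21131 CPM at D2 and 20585 and 20274 CPM at D3. It then had 20672 and 21505 CPM at D4, 26185 and 23172 CPM at D6, 27319 and 23037 CPM at D8 and 27354 and 27700 CPM at D16. Every DDR-Sen library was above both Ctrl libraries, from D0 on. Such orderings rest on the same 2 Ctrl libraries, and how often other miRNAs show them was not counted, here and below. Ordered by mean level, PMD-Sen D0 was lowest and DDR-Sen D16 highest, Ctrl was the fourth lowest of 18, and in 14 of the 17 steps between neighbouring conditions the libraries overlapped.

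Against Ctrl, a call was a Benjamini-Hochberg adjusted p below 0.05 in edgeR's quasi-likelihood test. In PMD-Sen, 3 of the 64 tests of a member at a time point were called, all higher than Ctrl (4.69%), beside 5.31% of the tests of all miRNAs in either direction and 2.67% in the higher direction, which is below the former and above the latter. At D8, 5.28% of all miRNAs were called higher, and at D16 8.89%. miR-30a-5p was higher at D8 (log2 fold change 0.79, SE 0.23, adjusted p = 0.0308) and at D16 (0.91, SE 0.23, adjusted p = 0.00871). miR-30a-3p was higher at D8 (0.83, SE 0.23, adjusted p = 0.0259), but not when libraries were thinned to the smallest total (0.40, adjusted p = 0.403) or left unfiltered for low counts (adjusted p = 0.165). At D0 and D1 the log2 differences of miR-30a-5p were −0.56 and −0.50, and neither was called (adjusted p = 0.340 and 0.362). DESeq2 also called 3 of the 64, and 11 had an unadjusted p below 0.05. Shares of all miRNAs are not given for DESeq2 or for an unadjusted p alone, here and below.

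In DDR-Sen, 12 of the 64 tests were called, all higher than Ctrl (18.8%), beside 7.08% for all miRNAs in either direction and 3.82% in the higher direction. miR-30a-5p was higher at D6 (0.86, adjusted p = 0.0167), D8 (0.89, adjusted p = 0.0126) and D16 (1.01, SE 0.23, adjusted p = 0.00250). miR-30a-3p was higher at D4 (0.79, adjusted p = 0.0424), D6 (0.89, adjusted p = 0.0149), D8 (0.83, adjusted p = 0.0190) and D16 (0.91, adjusted p = 0.00523). The other 5 calls were those of miR-30c-5p, at D3, D4, D6, D8 and D16. The study lists the miR-30-5p family as upregulated in DDR-Sen on these days. Its threshold was unlike the one here, an unadjusted p below 0.05 in DESeq2 with an absolute log2 fold change above 1. Of the 5p arms here, only miR-30c-5p was called on all of these days, and miR-30b-5p, miR-30d-5p and miR-30e-5p on none. By day, 2.5% (D3), 5% (D4), 5.83% (D6), 5.56% (D8) and 11.4% (D16) of all miRNAs were called higher. DESeq2 also called 12, and 25 had an unadjusted p below 0.05. All of these comparisons share the same 2 Ctrl libraries: with Ctrl replicate 1 left out, no test of either series was called, and with Ctrl replicate 2 left out, 2 were called, both in DDR-Sen. Leaving out any single library of the comparison, miR-30a-5p had a log2 difference of 0.84 to 0.95 at PMD-Sen D16 and of 0.92 to 1.03 at DDR-Sen D16. The D4 call of miR-30a-3p was also lost with total counts, with DESeq2's size factors and with other filters on low counts. In bulk libraries, fewer cells of a type and less RNA per cell cannot be told apart.

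miR-30c-5p had 1437 and 1748 CPM in Ctrl. In DDR-Sen it had 2480 and 1777 CPM at D0, 2787 and 2340 CPM at D1, 2956 and 2486 CPM at D2 and 3269 and 3467 CPM at D3. It then had 3424 and 3301 CPM at D4, 3794 and 3092 CPM at D6, 3814 and 3521 CPM at D8 and 3474 and 3101 CPM at D16. All 16 DDR-Sen libraries were above both Ctrl libraries, and the level was called higher from D3 (1.08, SE 0.28, adjusted p = 0.0188) to D16 (1.04, SE 0.28, adjusted p = 0.00671). Leaving out single libraries gave log2 differences of 0.89 to 1.21 at D3 and of 0.87 to 1.17 at D16, and each of the 4 libraries of either comparison ended its call when it was left out. With total counts in place of TMM, D3 and D4 were no longer called. In PMD-Sen it had 1202 and 2126 CPM at D0, 1722 and 948 CPM at D1, 1570 and 806 CPM at D2 and 1711 and 1559 CPM at D3. It then had 1684 and 1634 CPM at D4, 2258 and 1919 CPM at D6, 2164 and 2770 CPM at D8 and 2942 and 2286 CPM at D16. In PMD-Sen, only the libraries of D6, D8 and D16 were all above Ctrl, and 0 of 8 time points were called by edgeR or DESeq2, although 2 had an unadjusted p below 0.05 (D16: 0.71, SE 0.28, adjusted p = 0.0726).

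miR-30d-5p, the leading member in Ctrl with 21989 and 23385 CPM, had no called difference at any time point. In PMD-Sen it had 19298 and 15636 CPM at D0, 16562 and 20333 CPM at D1, 20988 and 22560 CPM at D2 and 16853 and 22064 CPM at D3. It then had 17987 and 29011 CPM at D4, 19241 and 19406 CPM at D6, 20612 and 18408 CPM at D8 and 20326 and 25100 CPM at D16. In DDR-Sen it had 18787 and 24582 CPM at D0, 21547 and 20468 CPM at D1, 22862 and 21771 CPM at D2 and 17623 and 20178 CPM at D3. It then had 19181 and 20490 CPM at D4, 20564 and 19877 CPM at D6, 19403 and 20495 CPM at D8 and 19944 and 18119 CPM at D16. Replicates overlapped in all 17 neighbouring steps of the order, 10 conditions lay wholly below Ctrl and 0 wholly above. Its log2 differences from Ctrl ran from −0.38 to 0.05 across PMD-Sen days and from −0.26 to −0.02 across DDR-Sen days, and 0 of the 16 were called by edgeR or DESeq2, with 0 at an unadjusted p below 0.05. At DDR-Sen D16 the 95% interval of the difference was −0.62 to 0.11.

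Over the time courses miR-30a-5p overtook miR-30d-5p as the leading member of the family. In Ctrl, miR-30d-5p made up 58.4% and 58.3% of all miR-30 5p counts and miR-30a-5p 35.4% and 34.7%. At DDR-Sen D16 the shares were 38.4% and 36.1% for miR-30d-5p and 52.6% and 55.1% for miR-30a-5p. At PMD-Sen D16 they were 39.2% and 46.8% for miR-30d-5p and 50.5% and 46.9% for miR-30a-5p. The count ratio of miR-30a-5p to miR-30d-5p was 0.606 and 0.595 in Ctrl, against 0.395 to 1.29 across PMD-Sen and 0.661 to 1.53 across DDR-Sen. It was above 1 in 0 of 2 Ctrl libraries, 4 of 16 PMD-Sen libraries (those of D8 and D16), 12 of 16 DDR-Sen libraries and 1 of 2 RS libraries. Both counts come from the same library, so the ratio does not depend on scaling. As a share of all counts in a library, the 5p arms together were 3.93% and 4.29% in Ctrl, 3.01% and 3.15% at PMD-Sen D1, 4.94% and 5.55% at PMD-Sen D16 and 5.11% and 5.22% at DDR-Sen D16.

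**Figure D2:**
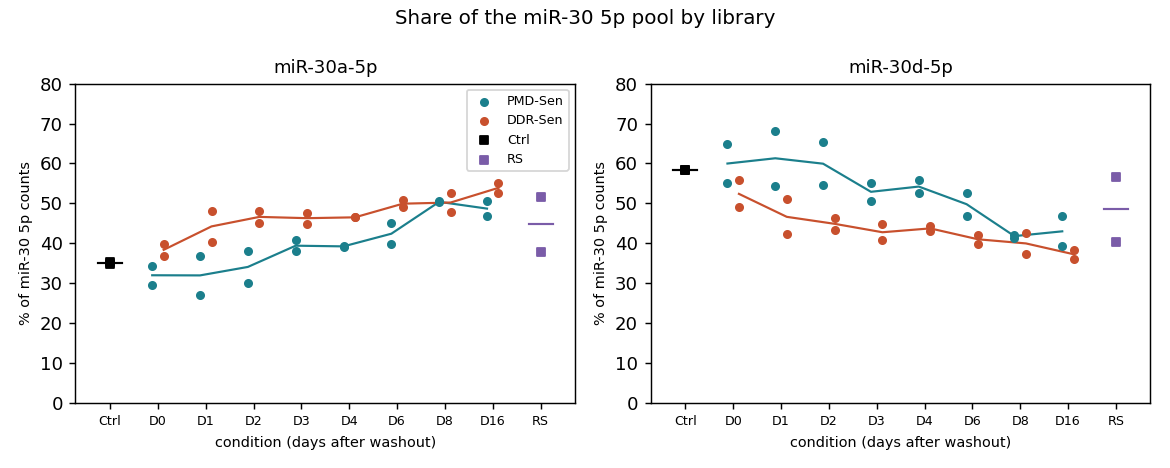
The vertical axis is the percentage of all miR-30 5p counts held by miR-30a-5p (left) or miR-30d-5p (right) and the horizontal axis is the condition, with each library as a point and lines or bars at the mean of 2. miR-30d-5p falls from 58.4% and 58.3% in Ctrl to 38.4% and 36.1% at DDR-Sen D16, while miR-30a-5p goes from 35.4% and 34.7% to 52.6% and 55.1%.

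miR-30e-5p had 862 and 1020 CPM in Ctrl and spread widely between replicates. In PMD-Sen it had 450 and 668 CPM at D0, 866 and 452 CPM at D1, between 806 and 1200 CPM from D2 to D6, 1516 and 786 CPM at D8 and 2295 and 1053 CPM at D16. In DDR-Sen it had 1740 and 1417 CPM at D0, 2079 and 1060 CPM at D1, between 897 and 1698 CPM from D2 to D6, 1352 and 1087 CPM at D8 and 1126 and 1247 CPM at D16. The PMD-Sen level was thus lowest at the start of the series and the DDR-Sen level highest there, but 0 of its 16 tests against Ctrl were called by edgeR or DESeq2, with 1 unadjusted p below 0.05 (PMD-Sen D16: 0.84, SE 0.40, adjusted p = 0.134). It was higher in the deeper library of 14 of the 18 conditions, with replicates differing up to 3.21-fold (RS), whereas miR-30d-5p was higher in the deeper library of 6 conditions and differed up to 1.61-fold (PMD-Sen D4). The part of depth in the miR-30e-5p levels was not tested.

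The 3p arms were rarer. miR-30a-3p had 365 and 420 CPM in Ctrl, 267 and 289 CPM at PMD-Sen D1, 318 and 277 CPM at PMD-Sen D2, 692 and 703 CPM at PMD-Sen D8 and 601 and 554 CPM at PMD-Sen D16. In DDR-Sen it had 536 and 330 CPM at D0, 587 and 557 CPM at D1, 693 and 643 CPM at D2 and 823 and 659 CPM at D16. In 11 conditions both libraries were above Ctrl and in 4 (PMD-Sen D0 to D3) both were below. miR-30e-3p (47.2 and 79.97 CPM in Ctrl) had 133.7 and 131.9 CPM at PMD-Sen D16 and 139.8 and 97.7 CPM at DDR-Sen D16. miR-30c-2-3p (133 and 68.5 CPM in Ctrl) had 143 and 109.9 CPM at PMD-Sen D16 and 132 and 146 CPM at DDR-Sen D16. miR-30b-5p, the rare 5p arm, had 64.4 and 65.7 CPM in Ctrl, 147 and 87.9 CPM at PMD-Sen D16 and 85.4 and 88.1 CPM at DDR-Sen D16. For these 3, 0 of 48 tests against Ctrl were called by edgeR or DESeq2, and 7 had an unadjusted p below 0.05. Their SEs, from 0.33 to 0.57, were larger than those of miR-30d-5p (0.19), so a given log2 difference was harder to detect at these counts.

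In RS, 1 of the 8 tested members was called (12.5%), beside 22.5% of all miRNAs in either direction and 10.3% higher. miR-30a-5p had 15196 and 28040 CPM (0.67, SE 0.23, adjusted p = 0.0391). Both libraries were above Ctrl, but the call rested on RS replicate 2: without it the log2 difference was 0.12, without RS replicate 1 it was 1.16, and DESeq2 made 0 calls. Leaving out either Ctrl library ended it too. The other members had log2 differences of −0.02 (miR-30d-5p) to 0.63 (miR-30e-3p), none of them called.

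PMD-Sen and DDR-Sen were then compared directly over D1 to D16, with the days matched, to ask whether the agent that starts senescence mattered for the family. Of the 8 members, 4 were called, all lower in PMD-Sen (50.0%), beside 21.4% of the 346 miRNAs tested in either direction and 12.4% in the lower direction. In the PMD-Sen libraries miR-30c-5p had 806 to 2942 CPM (median 1717) against 2340 to 3814 CPM (median 3285) in the DDR-Sen libraries, a difference (PMD-Sen minus DDR-Sen) of −0.81 on the log2 scale (SE 0.10, adjusted p = 1.3e-06). In the PMD-Sen libraries miR-30a-3p had 267 to 703 CPM (median 422) against 430 to 823 CPM (median 659) in the DDR-Sen libraries, a difference of −0.58 (SE 0.10, adjusted p = 8.94e-05). miR-30a-3p shares no seed with the 5p arms but comes from the same hairpin as miR-30a-5p. In the PMD-Sen libraries miR-30a-5p had 8039 to 26193 CPM (median 14940) against 16179 to 27700 CPM (median 23105) in the DDR-Sen libraries, a difference of −0.50 (SE 0.10, adjusted p = 0.000542). In the PMD-Sen libraries miR-30c-2-3p had 50.6 to 176 CPM (median 110.0) against 120 to 170 CPM (median 143) in the DDR-Sen libraries, a difference of −0.38 (SE 0.12, adjusted p = 0.0169). The ranges of the 2 series overlapped for each of the 4. They are the members that can come from the chromosome 6 cluster, although miR-30c-5p can also come from chromosome 1. The clusters were not tested against each other. miR-30e-3p, from chromosome 1, had a difference of similar size to that of miR-30c-2-3p (−0.37) but a larger SE (0.19), and was not called.

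The other 4 members were not called by edgeR with TMM or by DESeq2. miR-30d-5p had medians of 20330 (PMD-Sen) and 20323 CPM (DDR-Sen), a difference of 0.04 with a 95% interval of −0.09 to 0.17 (adjusted p = 0.759). With total counts, which moved the median of all miRNAs by 0.15, its difference was 0.20 and was called (SE 0.06, adjusted p = 0.0190). miR-30e-5p differed by −0.25 (95% interval −0.55 to 0.06), miR-30e-3p by −0.37 (−0.74 to −0.00) and miR-30b-5p by −0.23 (−0.58 to 0.13). Although the interval of miR-30e-3p ends at −0.00, its unadjusted p in edgeR was 0.0583. For miR-30c-5p the difference held at D6 to D16 alone (−0.54, adjusted p = 0.000704), a restriction chosen after the data were seen. For miR-30a-5p and miR-30a-3p it did not (−0.26, adjusted p = 0.0596, and −0.31, adjusted p = 0.0550), and without replicate 1 miR-30a-3p was not called over D1 to D16 (−0.48, adjusted p = 0.0699). With total counts in place of TMM, miR-30c-2-3p was no longer called (−0.22), and without replicate 1 or replicate 2 it was not called either (−0.44, adjusted p = 0.229, and −0.33, adjusted p = 0.202). Of the 6 blood cell markers only miR-486-5p was tested here, and it was also lower in PMD-Sen (−1.09, adjusted p = 5.37e-07). The study lists miR-486-5p among known senescence-associated miRNAs and as upregulated in DDR-Sen. Its part in these differences was not tested.

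Day by day, 6 of 64 tests were called, all lower in PMD-Sen (9.38%), beside 1.6% of all tests in either direction and 1.18% lower. Of all miRNAs, 1.94% were called lower at D1, 3.33% at D2 and 2.5% at D4. At D1 they were miR-30a-5p (−1.08, SE 0.23, adjusted p = 0.0198) and miR-30a-3p (−1.05, SE 0.25, adjusted p = 0.0198). At D2 they were miR-30a-3p (−1.16, adjusted p = 0.00655), miR-30c-5p (−1.19, adjusted p = 0.0153) and miR-30a-5p (−0.90, adjusted p = 0.0239). At D4 the call was miR-30c-5p (−1.02, adjusted p = 0.0310). No member was called at D8 or D16, where miR-30a-5p differed by −0.10 and −0.10 and miR-30c-5p by −0.57 and −0.33. Leaving out single libraries, the D1 difference of miR-30a-5p ranged from −1.51 to −0.78 and the D2 difference of miR-30c-5p from −1.87 to −0.79. All 6 calls ended without the second PMD-Sen replicate or the first DDR-Sen replicate of that day, and the smallest values came without DDR-Sen D1 replicate 1 and without PMD-Sen D2 replicate 2. With total counts, the D2 call of miR-30a-5p and the D4 call of miR-30c-5p were lost. DESeq2 called 10 of the 64, which were 3 for miR-30c-5p, 2 each for miR-30a-5p, miR-30a-3p and miR-30e-5p and 1 for miR-30e-3p, and 24 had an unadjusted p below 0.05.

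**Figure D3:**
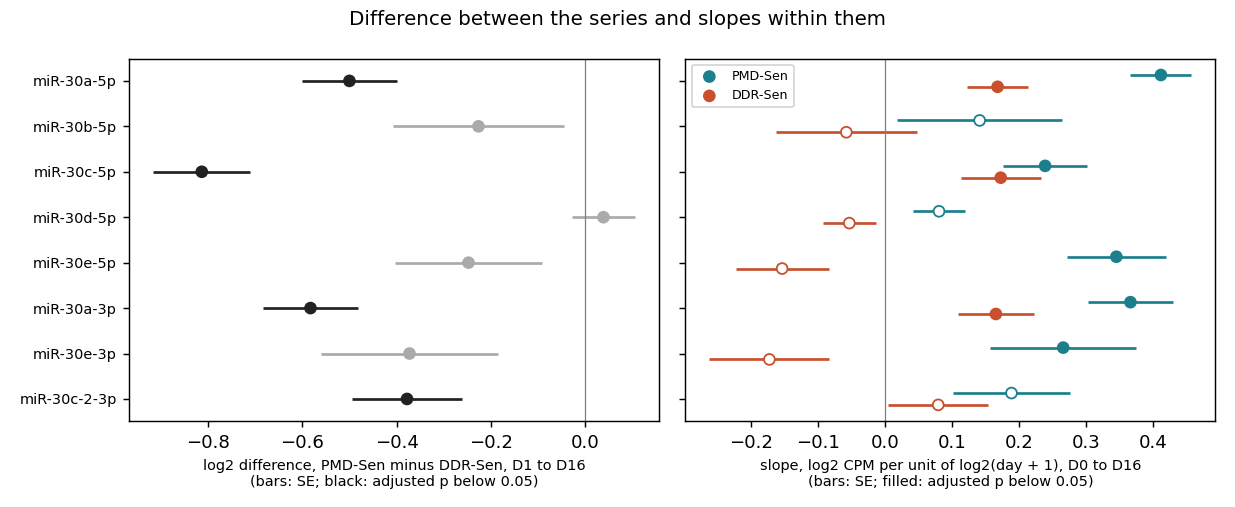
The left panel plots the log2 difference of PMD-Sen minus DDR-Sen over D1 to D16 for the 8 tested members, with SE bars and called members in black, and the right panel plots the slope of log2 CPM per unit of log2(day + 1) in each series, with called slopes filled. miR-30c-5p is farthest to the left (−0.81) and miR-30d-5p lies at 0.04, while the slopes of miR-30e-5p are 0.35 (PMD-Sen) and −0.15 (DDR-Sen).

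The course over time was summarised by the slope of log2 CPM against log2(day + 1) from D0 to D16, with 354 miRNAs tested. In PMD-Sen, 5 of 8 members had a called slope, all rising, beside 38.1% of all miRNAs in either direction and 17.8% rising. The steepest was miR-30a-5p (0.41 per unit, SE 0.05, adjusted p = 8.04e-09), followed by miR-30a-3p (0.37, SE 0.06, adjusted p = 1.94e-05) and miR-30e-5p (0.35, SE 0.07, adjusted p = 0.000309). miR-30e-3p (0.27, SE 0.11, adjusted p = 0.0383) and miR-30c-5p (0.24, SE 0.06, adjusted p = 0.00170) also rose. Slopes of miR-30c-2-3p (0.19), miR-30b-5p (0.14) and miR-30d-5p (0.08) were not called (adjusted p = 0.0811, 0.336 and 0.111). Depth rose along the same series. With every library thinned to the smallest total, the slopes were 0.40 for miR-30a-5p, 0.33 for miR-30a-3p, 0.39 for miR-30e-5p and 0.20 for miR-30c-5p, all called, and 0.22 for miR-30e-3p, no longer called (adjusted p = 0.181). Without replicate 1 of every condition, the slopes of miR-30e-5p (0.17, adjusted p = 0.237), miR-30e-3p (0.33, adjusted p = 0.189) and miR-30c-5p (0.18, adjusted p = 0.237) were not called, and miR-30e-3p was also not called without replicate 2 (0.25, adjusted p = 0.119) or without D16 (0.18, adjusted p = 0.352).

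In DDR-Sen, 3 of 8 members had a called slope, all rising, beside 26.3% of all miRNAs in either direction and 11.6% rising. They were miR-30a-5p (0.17, SE 0.05, adjusted p = 0.00429), miR-30a-3p (0.17, SE 0.06, adjusted p = 0.0286) and miR-30c-5p (0.17, SE 0.06, adjusted p = 0.0340). Without D0 none of the 3 was called (0.12, 0.11 and 0.12, adjusted p = 0.140, 0.255 and 0.225), nor without replicate 1 or replicate 2 of every condition. The slopes of the miR-30e arms had the opposite sign, −0.15 for the 5p arm and −0.17 for the 3p arm, and were not called (adjusted p = 0.0871 and 0.139). That of miR-30e-5p was called falling without replicate 2 (−0.23, adjusted p = 0.0229) and without D16 (−0.23, adjusted p = 0.0338), and was −0.04 without replicate 1. That of miR-30e-3p was called falling without D16 (−0.32, adjusted p = 0.0321) and when libraries were thinned (−0.35, adjusted p = 0.0235), and was −0.06 without replicate 1. Thinning ended the call of miR-30a-3p (0.16, adjusted p = 0.0525).

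The difference between the slopes was called for 3 of 8 members, all steeper upward in PMD-Sen, beside 16.1% of all miRNAs in either direction and 9.32% in the same direction. miR-30e-5p differed by 0.50 (SE 0.10, adjusted p = 0.00145), miR-30e-3p by 0.44 (SE 0.14, adjusted p = 0.0254) and miR-30a-5p by 0.24 (SE 0.06, adjusted p = 0.00829). Without replicate 1 of every condition, none of the differences of slope was called (0.21, adjusted p = 0.621, for miR-30e-5p, 0.39, adjusted p = 0.606, for miR-30e-3p, and 0.18, adjusted p = 0.610, for miR-30a-5p), and without D16 that of miR-30e-3p was not (0.50, adjusted p = 0.0578). The slopes of miR-30c-5p in the 2 series differed by 0.07 (95% interval −0.10 to 0.24, adjusted p = 0.655). Those of miR-30a-3p differed by 0.20 (SE 0.09, adjusted p = 0.107), and neither was called. Without D0 the 3 calls held, and miR-30a-3p was called too (0.32, adjusted p = 0.0303). The difference of miR-30c-5p was then 0.25, outside the interval above, and was not called (adjusted p = 0.0752).

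The ratio of 5p to 3p counts asked whether the arms of a hairpin moved together. For miR-30a it was 27.8 to 51.9 across the 36 libraries (median 36.3), and for miR-30e 5.44 to 32.0 (median 12.1). For miR-30e the lowest single ratio was at PMD-Sen D0 (5.44 and 6.67), where only 9 counts of the 3p arm were found in each library, followed by PMD-Sen D6 replicate 2 (6.32). The highest was at PMD-Sen D2 (20.0 and 32.0), where only 24 and 6 counts of the 3p arm were found. Ctrl had 18.3 and 12.8. Over D1 to D16, limma on the log2 arm ratio called 0 of these 2 hairpins, with 0 at an unadjusted p below 0.05, beside 1 of 86 hairpins (1.16%); DESeq2 was not run on ratios. The difference of PMD-Sen from DDR-Sen was 0.09 for miR-30a (SE 0.09, adjusted p = 0.627) and 0.17 for miR-30e (SE 0.19, adjusted p = 0.643). With libraries thinned to the smallest total it was 0.27 for miR-30a (SE 0.12, unadjusted p = 0.0267 and adjusted p = 0.130 in limma), again not called.

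**Figure D4:**
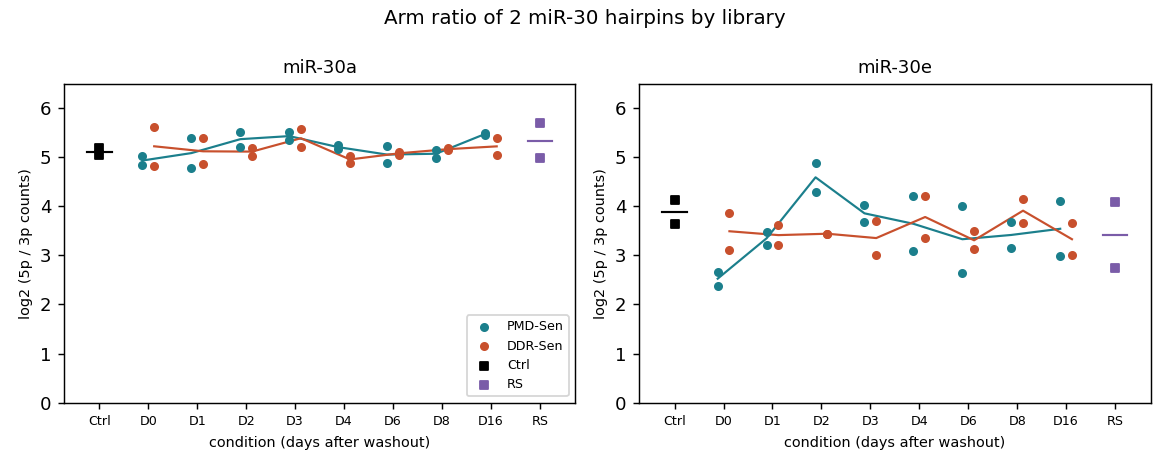
The vertical axis is the log2 ratio of 5p to 3p counts for miR-30a (left) and miR-30e (right) and the horizontal axis is the condition, with each library as a point and lines or bars at the mean of 2. The miR-30a ratios stay between 4.78 and 5.70, whereas those of miR-30e run from 2.38 at PMD-Sen D0 to 4.89 at PMD-Sen D2. These 2 libraries had only 9 and 6 counts of miR-30e-3p.

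Over the mean log2 CPM of the 18 conditions, described without a test because conditions share their depth and series, the arms of MIR30A were each other's closest match among the 359 other miRNAs (Pearson r = 0.947). miR-30c-5p had r = 0.892 with miR-30a-3p and 0.853 with miR-30a-5p. The arms of MIR30E had r = 0.618. miR-30b-5p and miR-30e-3p, from different clusters and both rare, were also each other's closest match (r = 0.802). The members of the chromosome 8 cluster were not alike: miR-30b-5p and miR-30d-5p had r = −0.03, and the count ratio of miR-30d-5p to miR-30b-5p ran from 87.8 to 896. miR-30c-2-3p, from the chromosome 6 cluster, had r = 0.686 with miR-30a-5p and 0.652 with miR-30a-3p.

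Among the 352 miRNAs outside the family, those most like miR-30a-5p over the 18 conditions were miR-10a-5p (r = 0.917), miR-26a-5p (0.904) and miR-369-3p (0.851). For miR-30a-3p they were miR-10a-5p (0.923), miR-26a-5p (0.873) and the joint entry of miR-151a-5p and miR-151b (0.842). miR-30c-5p was most like that joint entry (0.933), miR-26a-5p (0.896) and let-7f-5p (0.881). miR-30c-5p thus shared its closest matches in part with miR-30a-3p. miR-30e-5p was most like miR-101-3p (0.870), miR-542-3p (0.807) and miR-34a-5p (0.776). miR-30e-3p was most like miR-335-5p (0.784), let-7g-5p (0.779) and miR-34c-5p (0.773). The closest matches of both miR-30e arms, and those of miR-30c-2-3p, included a miR-34 arm, from the p53-induced list. The other tested arms of that list, miR-34b-3p, miR-192-5p and miR-194-5p, were not among those of any member. In PMD-Sen miR-34a-5p had a rising slope (0.32, adjusted p = 1.46e-05 in edgeR). Those of miR-192-5p (−0.38, adjusted p = 0.0325) and miR-194-5p (−0.35, adjusted p = 0.00395) fell. A link of p53 to miR-30 was not tested. Those of miR-30d-5p were miR-140-3p (0.781), miR-423-3p (0.672) and miR-99b-5p (0.636). miR-30c-2-3p was most like miR-107 (0.729), miR-34a-5p (0.706) and miR-126-3p (0.703), and miR-30b-5p was most like miR-151b (0.650), miR-450a-5p (0.639) and miR-450a-2-3p (0.637).

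Of the miR-29 family, described as acting with miR-30 on B-Myb, 5 of 7 listed arms were tested, and 0 were higher and 1 lower than Ctrl at D16 of either series and in RS. The lower one was each time miR-29b-1-5p (−1.81, −2.13 and −1.62, adjusted p = 0.000439, 2.13e-05 and 0.000256). Of all miRNAs, 7.78%, 11.7% and 12.2% were called lower in these comparisons. The median log2 difference of the 5 arms was 0.50, 0.00 and −0.05, beside 0.05, −0.03 and 0.12 over all miRNAs. miR-29a-3p, the abundant arm, differed by 0.50 at PMD-Sen D16 (adjusted p = 0.149) and by 0.00 at DDR-Sen D16 (adjusted p = 0.996). Of the 7 miRNAs listed as induced by p53, 5 were tested. miR-34a-5p was higher at PMD-Sen D16 (0.82, adjusted p = 0.0361) and was not called at DDR-Sen D16 (0.65, adjusted p = 0.0870), and 0 of the list were called in RS. miR-192-5p (−1.48, adjusted p = 0.0565) and miR-194-5p (−0.98, adjusted p = 0.0826) had negative values at PMD-Sen D16. At D16 the list median was −0.10 for PMD-Sen and −0.48 for DDR-Sen, beside −0.52 for RS. Over D1 to D16, 3 of the 5 were called, all lower in PMD-Sen, as were 12.4% of all miRNAs, namely miR-34a-5p (−0.53, adjusted p = 0.00112), miR-34b-3p (−1.12, adjusted p = 0.00859) and miR-34c-5p (−0.81, adjusted p = 0.0190), with a list median of −0.53 beside 0.02 over all miRNAs.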

How the data were processed

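Small RNA of WI-38 cells was sequenced in 36 libraries. According to the study's methods, the authors processed adapter-trimmed reads with the exceRpt pipeline, using GRCh38 as genome and miRBase as miRNA annotation. The deposited values are expected counts per mature miRNA, not normalized, in which a read that matches several miRNAs is shared between them. They were rounded before testing, and 0 columns were without a sample.

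Differences were tested with edgeR 4.0.16 in R 4.3.3 (TMM, filterByExpr, quasi-likelihood test, Benjamini-Hochberg over all tested miRNAs). Comparisons with Ctrl, RS and day by day used all 36 libraries, with a biological coefficient of variation of 20.9% and 18 residual degrees of freedom. PMD-Sen and DDR-Sen over D1 to D16 were compared with day as a factor in 28 libraries, and slopes used 32. Arm ratios, log2 of counts plus 0.5, were tested with limma 3.58.1. DESeq2 1.42.0 was an alternative. log2 CPM used a prior count of 2. Intervals are 95%, the estimate plus or minus 1.96 SE, and can be narrower than the test allows. In the comparisons with Ctrl, RS and day by day, the p-values measure the spread between the 2 biological replicates. Over D1 to D16, for slopes and for arm ratios, libraries of different days share a fit. There the p-values also take in how far the days depart from a constant difference or a straight line. Floors of 3 counts for a count of 0 cover counting error only. Library totals were 81668 to 1933435 counts. Positions came from GENCODE 44 and sequences from RefSeq.

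All 10 members are named, as are the 3 miRNAs most like each tested member by Pearson r over the 18 conditions, and lists of miR-29, p53-induced and cell type marker miRNAs. The members were picked by name, but they, the lists and the tests were chosen with earlier results of these data known. Procedures were tested on simulated data.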

Additional observations from a re-analysis of the deposited data

Results flagged for a closer look

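In 3 members the slope with day differed between the series by the interaction test of edgeR. miR-30e-5p rose more steeply in PMD-Sen than in DDR-Sen by 0.50 log2 units per unit of log2(day + 1), with slopes of 0.35 and −0.15. miR-30e-3p did so by 0.44, with slopes of 0.27 and −0.17, and miR-30a-5p by 0.24, with slopes of 0.41 and 0.17. With every library thinned to the smallest total the differences were 0.53 (adjusted p = 0.00163), 0.57 (adjusted p = 0.0255) and 0.24 (adjusted p = 0.0195). All 3 were higher in the deeper library of most conditions, miR-30e-5p in 14 of 18 and miR-30e-3p and miR-30a-5p in 13, and totals rose along the PMD-Sen series. Without replicate 1 of every condition the differences were 0.21, 0.39 and 0.18, and none was called. Without D0 these 3 were called, as was that of miR-30a-3p (0.32, adjusted p = 0.0303).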

How the results depend on the processing

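None of the 37 called member values changed sign under any of their 499 alternative values, while 346 kept the call and 153 lost it. Of the 195 uncalled values, with 2709 alternatives, 59 gained a call and 200 changed sign, none of these to a called value of the opposite sign. The called values were picked as called and the alternatives reuse the same libraries, so their kept sign adds little. The number of calls was less stable. Shares over all miRNAs are given here only for the unadjusted p and fold threshold. Changes in the other counts therefore cannot be assigned to miR-30 in particular. With only the 4 libraries of a comparison, calls rose from 3 to 6 in PMD-Sen against Ctrl, from 12 to 21 in DDR-Sen and from 6 to 10 day by day, and fell from 1 to 0 in RS. The RS call was also lost (0) with DESeq2's size factors, DESeq2's test, total counts, thinning, and the unadjusted p and fold threshold. That threshold gave 0 calls over D1 to D16, beside 1.45% of all miRNAs. Day by day it gave 12, beside 3.89% to 11.7% of all miRNAs on single days, and DESeq2 gave 10. D6 to D16 alone, chosen after seeing the data, gave 1 call in place of 4. With day as given, calls fell from 3 to 1 for the DDR-Sen slope and from 3 to 1 for the difference of slopes, and without D0 the DDR-Sen slope had 0. The cause was not tested.

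Leaving out 1 library at a time gave 0 to 4 calls in PMD-Sen, 0 to 10 in DDR-Sen, 0 to 2 in RS and 2 to 10 day by day. The lone library of such a group was assumed to vary like the others. Leaving out replicate 1 or 2 of every condition leaves those comparisons no residual degrees of freedom, so it was run for the others: 2 to 3 calls over D1 to D16, 2 to 4 for the PMD-Sen slope, 0 to 1 for the DDR-Sen slope, 0 to 3 for the difference of slopes and 0 for arm ratios.

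Over 153 pairs of conditions the deviations of same-numbered libraries had r from −0.46 to 0.37, above 0.1 in 53. Such values do not settle whether the replicate numbers mark pairs. Among the tested members, miR-30c-5p and miR-30e-5p were higher in replicate 1 in 13 of 18 conditions, and the others in 7 to 10. With the replicate block the calls were 3 in PMD-Sen, 12 in DDR-Sen, 1 in RS, 4 over D1 to D16, 7 day by day, 5, 3 and 3 for the slopes and their difference, and 0 for arm ratios. Total counts in place of TMM moved the median of all miRNAs by 0.15 over D1 to D16 and by −0.26 at DDR-Sen D4. Low counts limit miR-30b-5p, miR-30e-3p and miR-30c-2-3p, with SEs against Ctrl of 0.33 to 0.57.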
